A study of Mus musculus with 8 samples.

Results

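The HOX genes of 4 mouse tumor cell lines were compared by cluster and by paralog number. They were chosen as the protein-coding rows of the gene table whose symbol is Hoxa, Hoxb, Hoxc or Hoxd followed by a number, which gave 33 genes of 18768 in the table, with 11 of the Hoxa, 9 of the Hoxb, 7 of the Hoxc and 6 of the Hoxd cluster. GENCODE M21 annotates 39 such genes, and Hoxb1, Hoxc11, Hoxc12, Hoxd1, Hoxd11 and Hoxd12 were not analysed here. The lines came from fibrosarcomas, tumors of connective tissue, that arose in mice after a subcutaneous injection of methylcholanthrene (MCA), a chemical carcinogen, in peanut oil. Tumors of IRF8 knock-out mice gave MC010 and MC011, which are labelled IRF8 KO. Tumors of C57BL/6 mice gave MC654 and MC659, which are labelled WT. Each tumor was digested about 3 months after the injection and its cells were cultured for at least 10 passages, so that each line stands for 1 tumor, and cell culture and carcinogen are shared by all 4 lines. The mice's ages and the place of the injection on the body are not given in the sources used here. From each line, 2 libraries of stranded mRNA were sequenced, and nothing in the labels says that they came from separate cultures, so p-values between lines measure the spread between 2 libraries of a line, which may be technical.

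HOX genes encode homeodomain transcription factors that give cells their position along the head-to-tail axis and along the limbs. They lie in clusters, and their order on the chromosome matches the order in which they are used: genes at the 3′ end, with low paralog numbers, act toward the head, and genes at the 5′ end, with high numbers, act toward the tail and in the distal limb. Fibroblasts of the adult body keep much of the HOX pattern of the place they were taken from. Paralog groups 1 to 3 are called anterior here (6 genes in the table), groups 4 to 8 central (15 genes) and groups 9 to 13 posterior (12 genes). In mm10, the Hoxb genes spanned chr11:96194316-96368256, the Hoxc genes chr15:102921103-103036852 and the Hoxd genes chr2:74668310-74765142, all on the plus strand, and the Hoxa genes lie on the minus strand of chromosome 6.

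Several genes at the 5′ ends of the clusters differed between the lines, and the sequence just upstream of 5 of them is shown for that reason. RefSeq promoter windows (GRCm38.p6) were found for 18 of the 33 genes. The 250 bases before the transcript start are given on the strand of the gene, with CpG dinucleotides, the sites where mammalian DNA is methylated, in capitals. Hoxa10 (chr6:52240855-52241104, minus strand) was nearly silent in MC010, and Hoxa11 (chr6:52245811-52246060, minus strand), Hoxa13 (chr6:52260881-52261130, minus strand), Hoxd10 (chr2:74691641-74691890, plus strand) and Hoxd13 (chr2:74667975-74668224, plus strand) were highest in MC011.
Hoxa10: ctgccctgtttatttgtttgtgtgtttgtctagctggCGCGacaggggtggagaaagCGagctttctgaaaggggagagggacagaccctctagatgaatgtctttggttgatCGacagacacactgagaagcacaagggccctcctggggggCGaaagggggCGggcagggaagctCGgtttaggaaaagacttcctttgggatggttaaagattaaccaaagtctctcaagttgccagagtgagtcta
Hoxa11: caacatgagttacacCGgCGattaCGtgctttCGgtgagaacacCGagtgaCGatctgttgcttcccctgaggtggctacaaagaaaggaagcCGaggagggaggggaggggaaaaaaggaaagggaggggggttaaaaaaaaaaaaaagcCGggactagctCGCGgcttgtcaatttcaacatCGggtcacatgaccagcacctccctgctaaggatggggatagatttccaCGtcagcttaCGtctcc
Hoxa13: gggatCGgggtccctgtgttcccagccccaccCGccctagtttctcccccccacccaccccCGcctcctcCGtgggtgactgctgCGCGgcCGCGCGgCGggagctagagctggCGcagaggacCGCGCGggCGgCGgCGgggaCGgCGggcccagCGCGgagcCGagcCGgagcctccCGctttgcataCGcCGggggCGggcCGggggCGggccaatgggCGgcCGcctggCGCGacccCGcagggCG
Hoxd10: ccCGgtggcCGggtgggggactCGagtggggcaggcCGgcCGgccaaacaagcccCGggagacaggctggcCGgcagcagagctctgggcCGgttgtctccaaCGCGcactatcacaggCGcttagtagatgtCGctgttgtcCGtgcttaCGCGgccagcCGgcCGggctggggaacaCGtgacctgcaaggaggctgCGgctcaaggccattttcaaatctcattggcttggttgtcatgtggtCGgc
Hoxd13: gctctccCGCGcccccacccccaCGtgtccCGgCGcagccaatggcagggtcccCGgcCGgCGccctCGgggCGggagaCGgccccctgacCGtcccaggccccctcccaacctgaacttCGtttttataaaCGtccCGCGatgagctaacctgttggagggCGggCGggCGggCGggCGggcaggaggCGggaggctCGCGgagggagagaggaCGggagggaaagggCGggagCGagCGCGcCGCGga
The windows of Hoxa13 and Hoxd13 held 35 and 31 CpG, that of Hoxd10 held 20, and those of Hoxa11 and Hoxa10 held 13 and 7. The median was 12.5 over the 18 HOX windows and 6 over all 32851 windows of the same length. Posterior HOX proteins and their CDX relatives bind TAAA-type sites, of which CAATAAA was searched on both strands: 1 of the 18 HOX windows (Hoxb8) held it, against 4.204% of all windows. The letters TGATTNAT, a site of HOX proteins with their PBX partners, were in the window of Hoxa2 alone of the 18 and in 2.82% of all windows. None of the 5 windows shown held either, which says only that these letters are not in these bases.

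Library totals were 74063616 to 116206078 counts. Levels are in CPM, the counts divided by TMM-adjusted library totals, and 3 counts, taken as the floor of detection, are 0.0258 to 0.0405 CPM without these factors. Floors and counting intervals cover counting error only. The targeted gene, Irf8, an interferon-response transcription factor, had 442 and 347 counts in MC010, 32 and 10 in MC011, 1 and 2 in MC654, and 1 and 0 in MC659. The targeted gene was therefore highest where the label says knock-out, and every direction here is by label. Libraries of the same line had a correlation of log2(CPM + 0.05) over the 18768 genes of r = 0.994 or 0.995. All 11 fibroblast and mesenchymal markers were in the table and had counts in every library, with a summed level of 10454 to 16536 CPM that Vim and Fn1 led. They were not level between lines: in MC010 minus MC011, 2 were called higher and 6 lower, beside 16.3% of all genes in each direction. The 2 higher were Col1a2 and Prrx1. Col1a2 was at 803 and 757 CPM in MC010 and 253 and 238 in MC011. Prrx1 was at 1005 and 1041 CPM in MC010 and 430 and 446 in MC011. Pdgfra was at 443 and 446 CPM in MC011, 70.3 and 72.4 in MC010 and 17.1 to 19.9 in the lines labelled WT, Thy1 at 68.1 and 72.0 CPM in MC011 and 8.68 to 12.8 elsewhere, and Col1a1 at 81.7 and 93.2 CPM in MC010 and 251 to 486 elsewhere. Markers of other cell types were present to unequal degrees: the 5 epithelial markers in the table summed to 531 and 566 CPM in MC010, led by Krt8 and Krt18, against 33.9 to 35.7 in MC011 and 114 to 129 in the lines labelled WT. The other 3, Epcam, Cdh1 and Krt14, went the other way. They were called lower in MC010 than in MC011 and did not exceed 1.19 CPM in any library. The 5 hematopoietic markers in the table summed to 16.4 to 23.6 CPM, and the pan-leukocyte marker Ptprc had 0 to 18 counts. The 5 endothelial markers summed to 0.630 to 1.007 CPM. Of the 5 skeletal muscle markers, the 3 in the table summed to 3.25 and 3.52 CPM in MC010, 0.0253 and 0.0516 in MC011 and 0.867 to 1.15 in the lines labelled WT, and the muscle regulator Myod1 had 281 and 204 counts in MC010 and 0 in both MC011 libraries. Des was also highest in MC010, at 32 and 22 counts. Acta1 was not: it had 58 and 33 counts in MC010, 5 and 2 in MC011 and 63 to 89 in the lines labelled WT, and was called lower in MC010 than in both of these. Of the 3 neural markers, the 2 in the table, led by the tubulin gene Tubb3, summed to 64.6 and 72.3 CPM in MC011, 1.37 and 2.23 in MC010 and 7.88 to 9.09 in the lines labelled WT. The other, Elavl4, had 159 and 154 counts in MC011, 58 and 40 in MC010, 0 and 0 in MC654 and 0 and 6 in MC659. These marker levels move with the lines, as the HOX values do, and their part in the HOX results was not tested. In bulk RNA, fewer cells that express a gene and less RNA per cell cannot be told apart.

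The lines labelled WT had the same most 5′ active gene in each HOX cluster. At 1 CPM, fewer HOX genes were active in MC010 and more in MC011. At a level of 1 CPM in both libraries, 19 of the 33 genes were expressed in MC010, 25 in MC654, 25 in MC659 and 29 in MC011. Of the 12 posterior genes, 2 reached this level in MC010 (Hoxc9 and Hoxd9), 6 in MC654, 6 in MC659 and 11 in MC011. The central genes differed less by this count, with 12 of 15 in MC010 and 14 of 15 in each of the other lines, and 4 to 5 of the 6 anterior genes were at the level in every line. The most 5′ gene at 1 CPM was Hoxa7, Hoxb8, Hoxc9 and Hoxd9 in MC010, Hoxa10, Hoxb9, Hoxc10 and Hoxd9 in both lines labelled WT, and Hoxa13, Hoxb13, Hoxc13 and Hoxd13 in MC011. At this level MC011 reached the end of all 4 clusters, while Hoxa and Hoxb stopped before the posterior groups in MC010. An unbroken stretch up to these ends was not shown in Hoxc and Hoxd of MC011. Hoxd10 was at 0.971 CPM in the first MC011 library, and Hoxc11, Hoxc12, Hoxd11 and Hoxd12 were not analysed. The borders of MC011 depended on the level: at 2 CPM they were Hoxa11, Hoxb9, Hoxc10 and Hoxd9, those of the lines labelled WT except in Hoxa, and the counts of genes were 17 in MC010 and 23 in each of the other lines. At 0.5 CPM the Hoxc border of MC010 moved to Hoxc10, the border of the lines labelled WT. The heat map by cluster and paralog number shows the same borders in both libraries of each line.

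**Figure D1:**
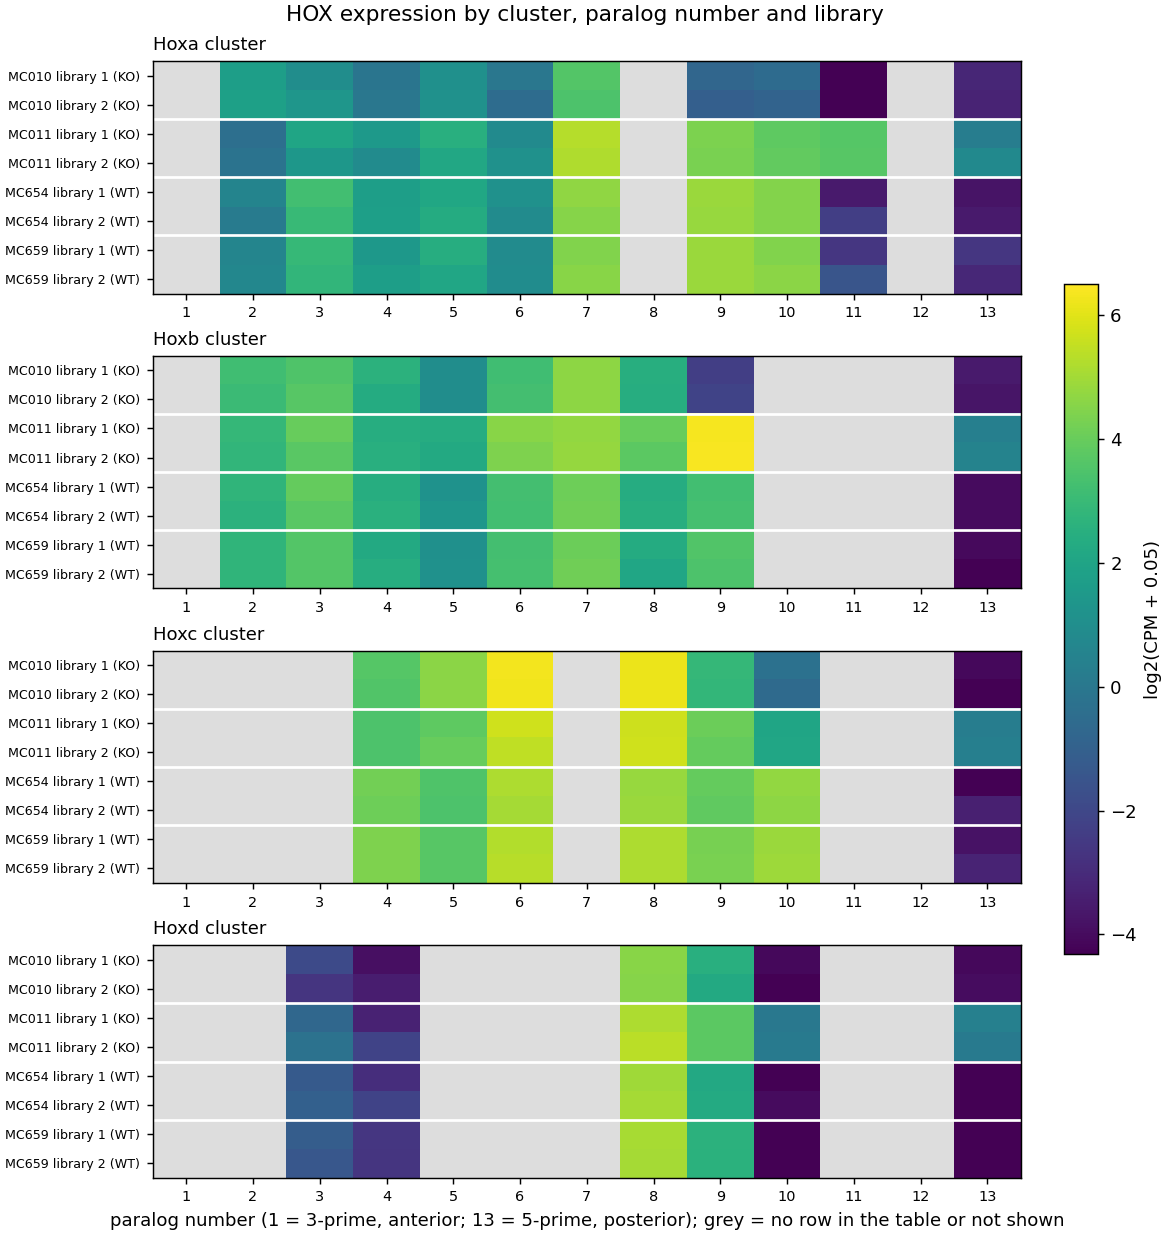
Level of each HOX gene as log2(CPM + 0.05), by cluster (panels), paralog number (columns) and library (rows); grey cells have no row in the table or are not shown. MC010 is dark at Hoxa9 to Hoxa13, Hoxb9 and Hoxc10, and MC011 is the only line with colour at the 13 position of all 4 clusters.

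The balance between clusters and classes differed in the same manner. Posterior genes took 4.72% and 4.33% of all HOX counts in MC010, 34.3% and 35.6% in MC011, 31.4% and 31.8% in MC654, and 32.6% and 33.0% in MC659. MC010 therefore stood apart from the other 3 lines, whose shares lay within 31.4% to 35.6%. The Hoxc cluster took 61.6% ± 0.164 (SD, n = 2 libraries) in MC010, 30.3% ± 0.446 in MC011, 39.4% ± 0.355 in MC654 and 43.7% ± 0.184 in MC659. The Hoxb cluster took 37.1% ± 0.187 in MC011 against 19.0% to 21.6% in the other lines on average, and the Hoxa cluster took 7.77% ± 0.222 in MC010 against 21.3% to 28.9%. The summed level of the 33 genes was 318 ± 4.22 CPM in MC010, 484 ± 5.95 in MC011, 339 ± 4.78 in MC654 and 364 ± 4.75 in MC659. Per kilobase of exon, the highest gene was Hoxc6 in MC010 (32.8 CPM per kilobase), MC654 (14.3) and MC659 (16.4), and Hoxb9 in MC011 (31.9), where Hoxc6 followed at 19.9.

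**Figure D2:**
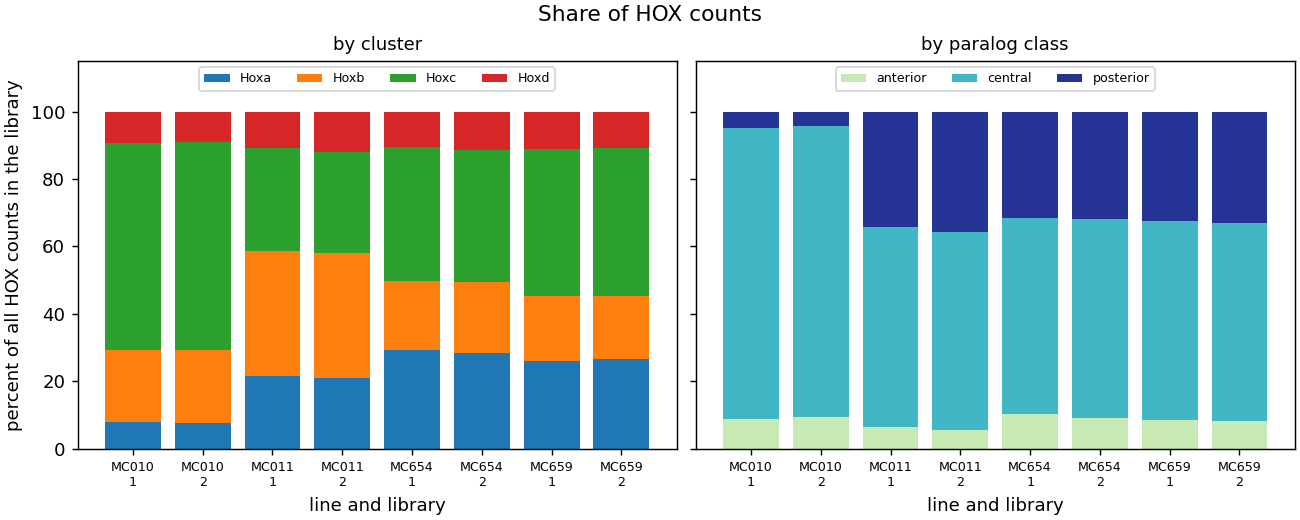
Percent of all HOX counts in each of the 8 libraries, split by cluster (left) and by paralog class (right); bars start at 0. Posterior genes take under 5% in both MC010 libraries and 31.4% to 35.6% in the other 6.

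The genes of paralog group 13, which pattern the hand and foot plate, the genital region and the tail end, were detected well above the floor in MC011 alone. Hoxa13, a gene of digits and the urogenital tract, had 7 and 4 counts in MC010, 111 and 135 counts in MC011, 2 and 3 counts in MC654, and 10 and 6 counts in MC659. Both MC011 libraries were far above the other 6, and the level in MC011 was 15.6-fold (95% interval 9.41 to 27.7) that in MC659, the next line (counts of a line's 2 libraries summed, exact interval). Hoxb13, a gene of the prostate and tail bud, had 4 and 2 counts in MC010, 120 and 109 counts in MC011, 1 and 1 counts in MC654, and 1 and 0 counts in MC659. MC011 was 40.8-fold (95% interval 18.4 to 112) above MC010, its next line, and the lines labelled WT were at or under 3 counts in every library. Hoxc13, known for hair and nails, had 1 and 0 counts in MC010, 111 and 98 counts in MC011, 0 and 4 counts in MC654, and 2 and 5 counts in MC659, and MC011 was 30.3-fold (95% interval 14.4 to 76.2) above MC659. For Hoxd13, a gene of digit number and shape, the libraries held 1 and 1 counts in MC010, 124 and 82 counts in MC011, 0 and 0 counts in MC654, and 0 and 0 counts in MC659. Against the floor of 3 counts over a line's 2 libraries, MC011 was at least 65.8-fold higher than MC654 and at least 69.6-fold higher than MC659, and it was 110-fold (95% interval 30.1 to 915) above MC010. At 1.04 to 1.71 CPM in MC011, these 4 genes were at a low level even there.

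Hoxd10 and Hoxa11 followed the pattern of group 13. Hoxd10, which acts in the lumbar spinal cord and hindlimb, had 1 and 0 counts in MC010, 94 and 84 counts in MC011, 0 and 1 counts in MC654, and 0 and 0 counts in MC659, and MC011 was at least 60.2-fold higher than MC659 against the floor. Hoxa11, a gene of the forearm and lower leg and of the uterus, reached 0 and 0 CPM in MC010, 12.6 and 12.8 in MC011, 0.0360 and 0.153 in MC654 and 0.113 and 0.311 in MC659. It had 0 counts in both MC010 libraries, 3 and 13 in MC654 and 10 and 28 in MC659, and MC011 was at least 795-fold higher than MC010 against the floor, 134-fold (95% interval 82.1 to 234) above MC654 and 59.6-fold (95% interval 43.3 to 84.4) above MC659. Of the exon bases of Hoxa11, 35.0% are shared with Hoxa11os on the opposite strand, and the strand setting of the authors' counting is not given in the sources used here, so reads of the pair may not be told apart. Hoxa11os itself had 320 and 254 counts in MC011, 0 and 0 in MC010, 3 and 7 in MC654 and 20 and 34 in MC659. Hoxa11, Hoxa13, Hoxb13, Hoxc13, Hoxd10 and Hoxd13 reached the level of the low-count filter, 0.115 CPM, in both libraries of MC011 and of no other line. All of them but Hoxa11 could enter the test only through the line where they are high. Hoxa11 also reached that level in the second MC654 and the second MC659 library, which was enough to enter without MC011.

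**Figure D3:**
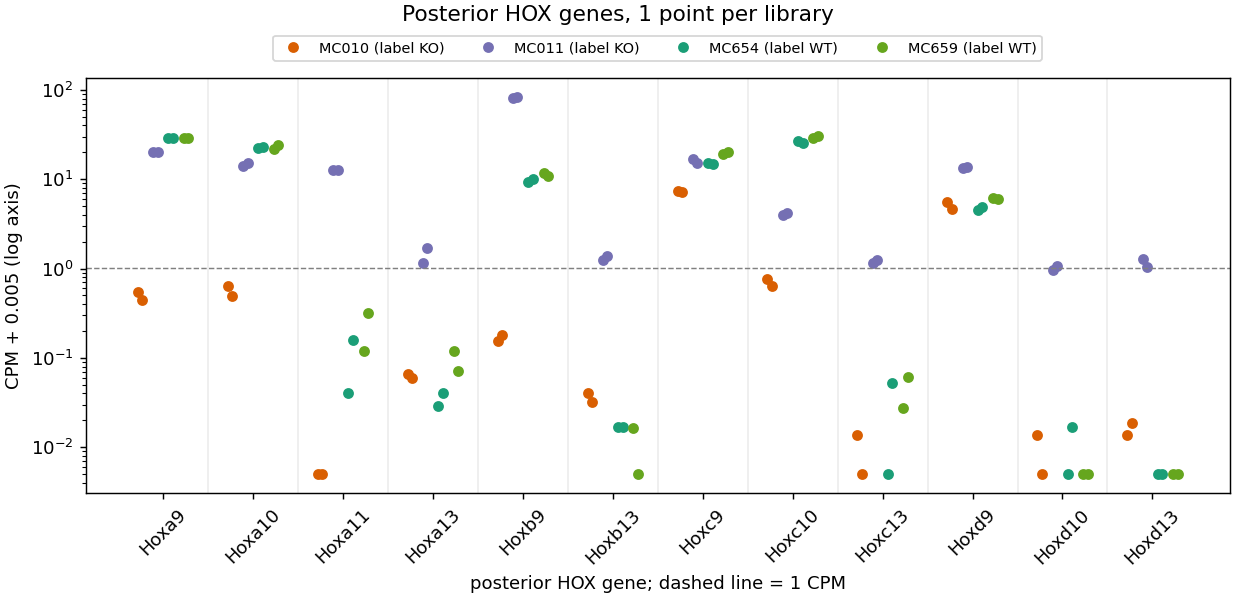
CPM + 0.005 on a log axis for the 12 posterior HOX genes, with 1 point per library, coloured by line, and a dashed line at 1 CPM. MC011 is above all other lines at Hoxa11, Hoxa13, Hoxb9, Hoxb13, Hoxc13, Hoxd9, Hoxd10 and Hoxd13, and MC010 is lowest at Hoxa9, Hoxa10, Hoxa11, Hoxb9, Hoxc9 and Hoxc10.

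Hoxa9, Hoxa10 and Hoxc10, of groups that pattern the lower back and the upper limb segments, were lowest in MC010. Hoxa9, a gene of lumbar vertebrae and blood progenitors, was at 0.543 and 0.435 CPM in MC010, 20.3 and 20.2 in MC011, 29.1 and 28.7 in MC654 and 29.1 and 29.0 in MC659. Both MC010 libraries were far below all others, with a log2 difference to MC011 of -5.34 (SE 0.11, adjusted p = 4.54e-16) in edgeR's quasi-likelihood test. Hoxa10, which acts in the lumbar region and uterus, showed the same order at 0.639 and 0.490 CPM in MC010, 13.9 and 15.0 in MC011, 22.2 and 22.7 in MC654 and 21.9 and 24.3 in MC659. MC010 was below MC011 by -4.64 (SE 0.13, adjusted p = 1.31e-14) on the log2 scale. MC011 in turn was lower than MC654 in Hoxa10 by a log2 difference of -0.63 (SE 0.08, adjusted p = 6.24e-06), a call that was lost without the first MC011 library (-0.58, under the fold threshold). Hoxc10, a gene of the hindlimb and lumbar cord, took a graded form: 0.761 and 0.626 CPM in MC010, 4.02 and 4.22 in MC011, 27.0 and 25.5 in MC654 and 29.1 and 30.4 in MC659. Neither line labelled IRF8 KO overlapped the lines labelled WT, and MC010 and MC011 also differed from each other, by -2.54 (SE 0.13, adjusted p = 3.46e-11). Against MC654, MC011 differed by -2.67 (SE 0.09, adjusted p = 1.11e-13) and MC010 by -5.21 (SE 0.11, adjusted p = 3.76e-16).

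The genes of group 9 did not move as 1 unit. Hoxb9, which patterns thoracic ribs, had the widest range among the HOX genes with counts in every library, at 0.149 and 0.177 CPM in MC010, 81.1 and 83.3 in MC011, 9.20 and 9.96 in MC654 and 11.7 and 10.97 in MC659. MC011 was highest and MC010 lowest without overlap, with a log2 difference of -8.99 (SE 0.12, adjusted p = 3.06e-18) between them. Against MC654, MC010 differed by -5.89 (adjusted p = 1.56e-15) and MC011 by 3.10 (adjusted p = 1.21e-15). Hoxc9, which with other group 9 genes sets the thoracic motor columns, stayed on in every line, at 7.35 and 7.10 CPM in MC010, 16.7 and 15.2 in MC011, 15.3 and 14.6 in MC654 and 19.2 and 20.1 in MC659. MC010 was lowest without overlap, with a log2 difference to MC011 of -1.14 (SE 0.08, adjusted p = 4.05e-09), whereas MC011 against MC654 gave 0.09 (adjusted p = 0.342). Hoxd9, a limb and lumbar gene, was at 5.57 and 4.69 CPM in MC010, 13.4 and 13.6 in MC011, 4.53 and 4.90 in MC654 and 6.10 and 5.96 in MC659. It was higher in MC011 than in all other lines, by a log2 difference of 1.52 (SE 0.11, adjusted p = 4.25e-09) to MC654, and MC010 and MC654 gave 0.13 (adjusted p = 0.347).

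Among the central genes, the Hoxa members were low in MC010 and some Hoxc members high. Hoxa7, a thoracic gene and the highest of the Hoxa cluster per kilobase in MC010, was at 12.2 and 11.01 CPM in MC010, 38.6 and 36.8 in MC011, 25.7 and 23.0 in MC654 and 21.8 and 23.6 in MC659. It shares 20.4% of its exon bases with Hoxaas3 on the opposite strand. MC010 was below and MC011 above the lines labelled WT without overlap, with a log2 difference between MC010 and MC011 of -1.69 (SE 0.08, adjusted p = 1.34e-11). The difference of MC011 to MC654, 0.63, fell to 0.55, under the fold threshold, without the second MC654 library. Hoxa4, Hoxa5 and Hoxa6, which act in the neck, lung and upper trunk, were lower in MC010 than in MC011 by -1.35, -1.24 and -1.29 on the log2 scale (adjusted p = 5.45e-05, 5.44e-06 and 1.30e-04), from levels of 0.667 to 2.15 CPM in MC010. The same 3 genes did not pass both thresholds between MC011 and either line labelled WT.

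Hoxc6, a gene of the border between neck and thorax and of the forelimb, was at 80.0 and 78.0 CPM in MC010, 52.1 and 43.6 in MC011, 35.5 and 33.3 in MC654 and 38.6 and 40.3 in MC659. MC010 was highest without overlap, by 0.72 (SE 0.07, adjusted p = 1.76e-07) over MC011 and by 1.20 (SE 0.07, adjusted p = 2.72e-10) over MC654. Hoxc8, which patterns the thorax and forelimb motor neurons, was at 72.3 and 71.9 CPM in MC010, 50.5 and 52.8 in MC011, 28.1 and 29.3 in MC654 and 36.4 and 36.3 in MC659. It was higher in MC010 than in MC654 by 1.33 (SE 0.06, adjusted p = 2.10e-12), and the difference between MC010 and MC011, 0.48 (adjusted p = 8.14e-07), was under the fold threshold of 0.59. Hoxc5, their neighbour toward the 3′ end, was at 24.2 and 24.8 CPM in MC010, 14.2 and 15.8 in MC011, 11.5 and 11.04 in MC654 and 12.8 and 12.97 in MC659, with MC010 above MC011 by 0.71 (SE 0.08, adjusted p = 5.34e-07). It shares 5.37% of its exon bases with Hoxc10. Hoxc4 ran the other way, at 12.4 and 11.7 CPM in MC010, 11.03 and 11.1 in MC011, 18.1 and 17.4 in MC654 and 21.1 and 20.9 in MC659. Its levels in the lines labelled IRF8 KO lay below those in the lines labelled WT, and MC010 and MC011 gave 0.13 (adjusted p = 0.155) between them.

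The central Hoxb genes were highest in MC011 from Hoxb5 to Hoxb8. Hoxb6, a thoracic gene, was at 9.02 and 9.67 CPM in MC010, 23.6 and 21.2 in MC011, 9.55 and 9.26 in MC654 and 9.68 and 9.81 in MC659. MC011 stood above the other lines, which lay within 9.02 to 9.81 CPM, by a log2 difference of 1.25 (SE 0.09, adjusted p = 1.91e-09) to MC654. Hoxb8, a thoracic gene also known for its part in grooming behaviour in mice, was at 5.48 and 5.27 CPM in MC010, 15.8 and 13.7 in MC011, 5.11 and 5.42 in MC654 and 4.97 and 4.19 in MC659, and the log2 difference of MC011 to MC654 was 1.48 (SE 0.12, adjusted p = 9.19e-09). Hoxb5, a gene of the shoulder girdle and gut nerves, was at 1.93 and 1.90 CPM in MC010, 5.16 and 4.72 in MC011, 2.24 and 2.53 in MC654 and 2.09 and 2.19 in MC659, with MC011 again highest, and the difference of MC011 to MC654 was 1.05 (SE 0.15, adjusted p = 1.95e-05). Hoxb7 was the exception, at 25.5 and 25.4 CPM in MC010, 26.4 and 27.6 in MC011, 17.3 and 18.0 in MC654 and 16.9 and 17.7 in MC659. Both lines labelled IRF8 KO were above both lines labelled WT, and MC010 minus MC011 was -0.09 (adjusted p = 0.278). Hoxb4, a gene of the neck and blood stem cells, ranged from 4.68 to 6.08 CPM over the 8 libraries and was called in none of the 6 pairs of lines. Hoxd8, a trunk gene, was at 23.6 and 23.4 CPM in MC010, 36.0 and 41.2 in MC011, 30.9 and 32.6 in MC654 and 33.8 and 33.3 in MC659, and only the difference of MC010 to MC011, -0.71 (SE 0.07, adjusted p = 1.44e-07), passed the thresholds. Hoxd4 had 5 counts in MC010, 19 in MC011, 22 in MC654 and 20 in MC659, summed over 2 libraries, and shares 52.3% of its exon bases with other genes. The level in MC654 was 4.91-fold (95% interval 1.81 to 16.6) that in MC010, an interval of counting error only, and edgeR called Hoxd4 in no pair of lines (adjusted p = 0.0502 for MC010 minus MC654).

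Among the anterior genes, Hoxb2 and Hoxb3, which pattern the hindbrain, ranged from 6.11 to 9.08 CPM and from 11.4 to 16.0 CPM and were called in no pair of lines. Hoxb3 shares 52.9% of its exon bases with Hoxb3os on the opposite strand, and Hoxb2 shares 27.3% with it. Hoxa2, which gives the second branchial arch its identity, was at 3.27 and 3.48 CPM in MC010, 0.723 and 0.810 in MC011, 1.42 and 1.08 in MC654 and 1.48 and 1.55 in MC659. It was highest in MC010 and lowest in MC011, with 2.14 (SE 0.21, adjusted p = 1.77e-07) between them, 1.43 for MC010 minus MC654 (adjusted p = 9.15e-06) and -0.71 for MC011 minus MC654 (adjusted p = 0.0131). Hoxa3, a gene of the third arch, thymus and parathyroid, was at 1.94 and 2.49 CPM in MC010, 4.02 and 2.61 in MC011, 9.19 and 7.75 in MC654 and 7.51 and 6.89 in MC659. The labels did not overlap, with IRF8 KO the lower. Of the exon bases of Hoxa3, 27.1% are shared with other genes, on both strands. The call between MC010 and MC011, -0.61 (SE 0.19, adjusted p = 0.0111), was lost without the first MC010 library (-0.43) and without the first MC011 library (-0.25, adjusted p = 0.303). Hoxd3 was low throughout, at 0.109 to 0.798 CPM, and 62.8% of its exon bases are shared with other genes.

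The lines with the label IRF8 KO differed from each other in 25 of the 33 genes. A gene was called at an adjusted p under 0.05 and a log2 difference over 0.59 in size. The 25 calls of MC010 minus MC011 are 75.8% of the 33 genes, against 32.6% of all 16703 genes tested. Of these, 22 were lower in MC010, against 16.3% of all genes, and 3, Hoxa2, Hoxc5 and Hoxc6, were higher, against 16.3%. Without the 6 posterior genes that reached the filter level in both libraries of MC011 alone, 19 of 27 were called. All of these 6 but Hoxa11 could enter the test only through MC011, and so had to differ. The other 6 posterior genes were lower in MC010, beside 8 of 15 central and 2 of 6 anterior genes. The median log2 difference was -3.59 over these 6 posterior, -1.24 over the central and -0.28 over the anterior genes, and 0.01 over all genes tested. The calls by cluster are over all 33 genes, with Hoxa11, Hoxa13, Hoxb13, Hoxc13, Hoxd10 and Hoxd13 included again. They were 10 of 11 Hoxa, 5 of 9 Hoxb, 5 of 7 Hoxc and 5 of 6 Hoxd genes, 25 in all. The count was 24 to 25 when each library was left out in turn.

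**Figure D4:**
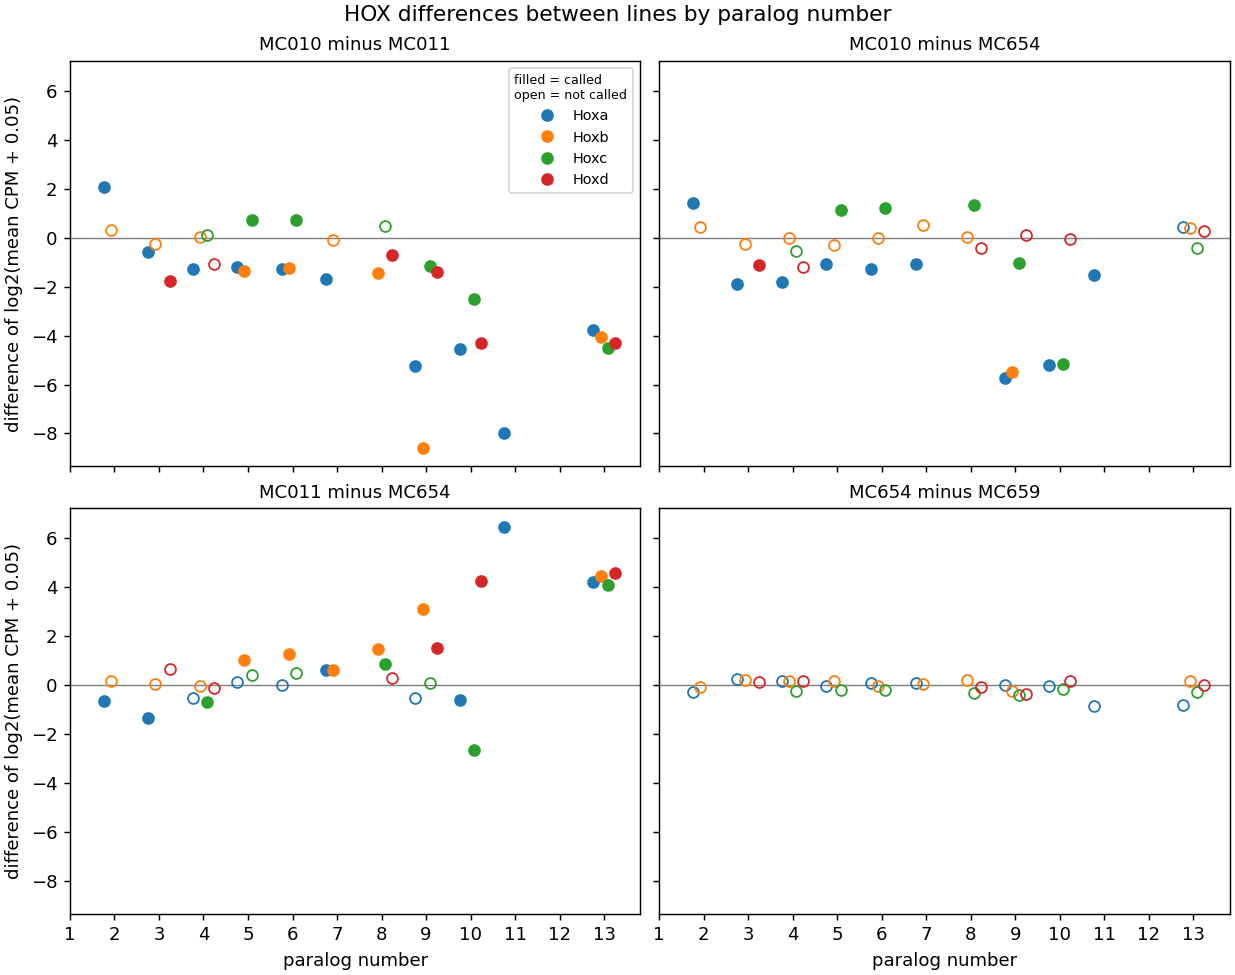
Difference of log2(mean CPM + 0.05) between lines (vertical axis) against paralog number (horizontal axis), coloured by cluster, for 4 of the 6 pairs of lines and for 32 of the 33 genes; filled points were called. The largest differences lie from paralog 9 on where MC010 or MC011 enters, and MC654 minus MC659 has no filled point. Where MC011 enters, they include the 6 genes that reached the filter level in both libraries of MC011 alone. Without these 6, the median log2 difference of MC011 minus MC654 in edgeR was -0.21 over the posterior and 0.41 over the central genes.

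The lines with the label WT had nearly the same HOX profile. MC654 minus MC659 gave 0 calls among the 33 genes with edgeR, against 4.58% of all genes tested (1.16% higher and 3.42% lower), 8 genes at an unadjusted p under 0.05, and 0 calls with DESeq2 as well. The differences closest to a call were those of Hoxc8, -0.34 (SE 0.06, adjusted p = 5.51e-04), and Hoxc9, -0.39 (SE 0.08, adjusted p = 0.00296), both lower in MC654 by less than the fold threshold, beside smaller ones in Hoxb9 (-0.24, adjusted p = 0.0394) and Hoxc4 (-0.24, adjusted p = 0.0409). The median size of the log2 difference was 0.19 over the 33 genes and 0.15 over all genes tested, and for MC010 minus MC011 it was 1.36 and 0.46. As a description over the 33 genes, which share clusters and libraries, log2(CPM + 0.05) of MC654 and MC659 libraries correlated with r = 0.991 to 0.996, that of MC010 and MC011 libraries with r = 0.645 to 0.659, while over all 18768 genes r was 0.991 to 0.992 and 0.953 to 0.954.

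Each line labelled IRF8 KO was also set against each line labelled WT, and these comparisons share libraries. MC010 minus MC654 gave 16 calls of 33, against 35.8% of all genes tested, with 4 higher (20.3%) and 12 lower (15.4%). MC010 minus MC659 gave 17, against 36.7%, with 4 higher (19.8%) and 13 lower (16.9%). In both, the higher genes were Hoxa2, Hoxc5, Hoxc6 and Hoxc8, and 8 of 11 Hoxa genes were lower. MC011 minus MC654 gave 19, against 29.9%, with 14 higher (18.0%) and 5 lower (11.9%), and MC011 minus MC659 gave 18, against 30.5%, with 13 higher (17.3%) and 5 lower (13.2%). In both, Hoxa7, Hoxb5, Hoxb6, Hoxb7 and Hoxb8 were higher in MC011, and Hoxa2, Hoxa3 and Hoxc4 were lower. Also higher were the 6 genes that reached the filter level in both libraries of MC011 alone. Of the other 6 posterior genes, 2 were higher in MC011 (Hoxb9 and Hoxd9) and 2 lower (Hoxa10 and Hoxc10). Without the 6 genes that reached the filter level in both libraries of MC011 alone, the calls of 27 were 15, 16, 13 and 12 in the same order.

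The study compared the labels, IRF8 KO against WT, and in that comparison the share of HOX genes called was near that of all genes. The filter by label left 27 of the 33 genes, without Hoxa13, Hoxb13, Hoxc13, Hoxd4, Hoxd10 and Hoxd13. Of the 27, 6 were called, 22.2%, against 22.5% of all 15153 genes tested. Hoxc5, Hoxc6 and Hoxc8 were higher with the label IRF8 KO, against 13.7% of all genes, by 0.71 (SE 0.20, adjusted p = 0.0228), 0.78 (SE 0.20, adjusted p = 0.0162) and 0.93 (SE 0.15, adjusted p = 0.00245) on the log2 scale. Hoxa3, Hoxc4 and Hoxc10 were lower, against 8.72% of all genes, by -1.50 (SE 0.24, adjusted p = 0.00190), -0.75 (SE 0.10, adjusted p = 7.64e-04) and -3.54 (SE 0.66, adjusted p = 0.00411). In all 6, the 4 libraries of one label did not overlap the 4 of the other. Hoxb7 had 0.59 (SE 0.06, adjusted p = 3.23e-04), just under the fold threshold, also without overlap. The genes with the widest spread between MC010 and MC011 were not called: Hoxb9 gave 1.98 (SE 1.58, adjusted p = 0.361), Hoxa9 -1.48 (SE 1.11, adjusted p = 0.332) and Hoxa10 -1.60 (SE 1.01, adjusted p = 0.251). The contrast rests on 2 lines against 2, and no HOX gene was called with edgeR when the counts of each line were added together, with 6 at an unadjusted p under 0.05. The split moved with the lines: 14 genes were higher and 5 lower with MC010 left out, and 4 were higher and 13 lower with MC011 left out. These fits tested 33 and 27 HOX genes, and the share of all genes called in them was not counted. Hoxc5 lost its call without either MC010 library, either MC654 library or the first MC659 library (lowest value 0.58), and Hoxc6 without the second MC654 library (0.73, adjusted p = 0.0510). Both also lost it without line MC010, at 0.30 for Hoxc5 and 0.36 for Hoxc6, under the fold threshold. Without line MC654 or line MC659 the adjusted p was 0.191 or 0.114 for Hoxc5 and 0.159 or 0.0969 for Hoxc6, and limma-voom with line as a random effect gave 0.108 and 0.0724.

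**Figure D5:**
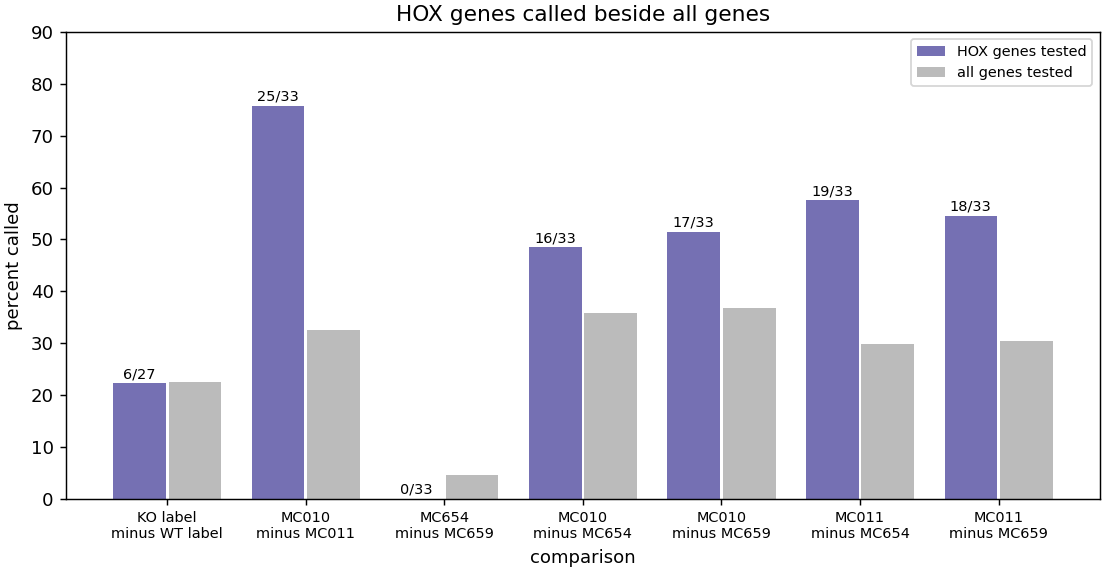
Percent of genes called in each of 7 comparisons, for the HOX genes tested (purple, with the count above the bar) and for all genes tested (grey); bars start at 0. The bars are level for the label comparison, 22.2% against 22.5%, and furthest apart for MC010 minus MC011, 75.8% against 32.6%.

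Noncoding genes inside the clusters were counted in the same table. Of 18 in the table, 14 were tested between lines, and in MC010 minus MC011 2 were higher and 7 lower, 16.3% of all genes being called in each direction, with a median log2 difference of -0.77. By label, 11 were tested and 1 was called, against 22.5% of all genes: Hotairm1, an antisense RNA at the 3′ end of the Hoxa cluster, at -1.07 (adjusted p = 0.0271). A pair of loci between Hoxb9 and Hoxb13 were singled out after their values were seen. Gm53 had 0 and 0 counts in MC010, 1849 and 1470 in MC011, 49 and 42 in MC654 and 16 and 40 in MC659. The Mir196a-1 locus, which carries the hairpin of miR-196a, had 0 and 0 counts in MC010, 108 and 94 in MC011, 2 and 1 in MC654 and 1 and 0 in MC659. These are mRNA reads over the locus and not the mature miRNA. Its mature form is shown because miR-196 is known to target HOX messengers such as that of Hoxb8, together with that of miR-196b, which is encoded in the Hoxa cluster and was not analysed here. The seed, bases 2 to 8, is in capitals and is shared by both (RefSeq, GRCm38.p6).
miR-196a-5p: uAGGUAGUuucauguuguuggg
miR-196b-5p: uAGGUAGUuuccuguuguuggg

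Genes that work with HOX proteins, regulate HOX genes or flank the clusters were listed apart. Of the 9 TALE homeodomain cofactors (Pbx, Meis and Pknox genes), which bind DNA beside HOX proteins, 4 were higher and 1 lower in MC010 than in MC011, where 32.6% of all genes were called. By label, with 22.5% of all genes called, Meis2 at 2.03 (SE 0.50, adjusted p = 0.0140) and Meis3 at 1.04 (SE 0.13, adjusted p = 0.000650) were higher and Pknox2 at -1.78 (SE 0.45, adjusted p = 0.0163) was lower. Of 21 upstream and chromatin regulators tested, among them the Polycomb genes that keep HOX genes silent, 1 was higher and 2 lower in MC010 than in MC011. By label, the Polycomb genes Ezh2 at 0.63 (adjusted p = 3.72e-05) and Ring1 at 0.77 (adjusted p = 0.0244) were higher, and the median of the 21 was -0.03. Of 9 flanking genes tested, outside the HOX genes on the same chromosomes, 0 were higher and 1 lower in MC010 than in MC011, with a median of 0.14. By label, only Skap1 was called, at 1.64 (adjusted p = 0.0296).

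Limb and body-wall patterning genes were listed as well. Of 12 in the table, 2 were higher and 8 lower in MC010 than in MC011, beside 16.3% of all genes in each direction, with a median log2 difference of -0.88, and 10 were tested by label, with 3 higher and 0 lower, beside 13.7% and 8.72% of all genes. These 3 were Isl1, a gene of hindlimb initiation and other progenitors, at 5.87 (SE 0.58, adjusted p = 0.000212), Tbx15, a gene of dorsal skin and limb skeleton, at 1.62 (SE 0.40, adjusted p = 0.0138), and Prrx1, a gene of limb mesenchyme, at 1.13 (SE 0.31, adjusted p = 0.0212). Pitx1, the hindlimb identity gene, was singled out after its values were seen: it had 29 and 11 counts in MC010, 1879 and 1032 in MC011, 1342 and 1113 in MC654 and 1080 and 1259 in MC659. MC010 was the line in which Pitx1, Hoxa9, Hoxa10, Hoxb9 and Hoxc10 were all lowest, a set put together after these values were seen. Isl1, 1 of the 2 patterning genes higher in MC010 than in MC011, went the other way. It was at 13.2 and 13.3 CPM in MC010, 8.20 and 8.80 in MC011 and 0.0556 to 0.396 in the lines labelled WT.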

How the data were processed

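Per the study's methods and processing notes, the authors aligned reads to mm10 (GRCm38.p6) with STAR and counted them per gene with HTSeq. The notes give STAR 2.7.3a and HTSeq 0.11.2, and the study's methods name other versions. The deposited raw counts were used. Each library's deposited signal (the count divided by a size factor, and its mean) and the authors' own DESeq2 comparison (log2 fold change and its error, a score, p-values) were not used. The number of unmapped per-sample columns was 0. The strand option of counting is not given in the sources used here. The 4 lines and 2 labels come from the labels.

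Counts were normalized by TMM and fitted on all genes with edgeR 4.0.16 (R 4.3.3; quasi-likelihood, robust), once with a group per line and once with a group per label, after filterByExpr by the same groups, with Benjamini-Hochberg adjustment. The study's thresholds were kept for calls, a log2 difference over 0.59 in size with an adjusted p-value under 0.05. Alternatives used DESeq2 1.42.0, limma-voom (3.58.1), other scaling and filters, line sums and leaving out libraries or lines. Exact 95% intervals of count ratios are conditional binomial. Per-kilobase levels used GENCODE M21 exon unions. The fits were tested on simulated counts. The own values of 1 HOX gene, which enters the counts and sums, are not reported here. The HOX genes and all gene lists were chosen with earlier results of these data known. Any other HOX gene could be named, from each other list up to 4 genes called by label with the largest change, and cell type markers. Over genes, deviations of same-numbered libraries of 2 lines from their line means correlated with r = -0.04 to 0.06, so the numbers do not pair them. Counts of the 2 libraries of a line differed by 7.62 to 13.2 times the sampling variance, so none was counted as a duplicate.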

Additional observations from a re-analysis of the deposited data

Results flagged for a closer look

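For 7 genes the lines with the label IRF8 KO lay on opposite sides of all 4 libraries labelled WT, and the difference between MC010 and MC011 was itself called by edgeR. The same count was not made over all genes, of which 32.6% were called between MC010 and MC011, so the 7 have no background to be read against. Of the 7, Hoxa2 alone was higher in MC010, at a log2 difference of 2.14. Those lower in MC010 were Hoxa7 at -1.69, Hoxb5 at -1.36, Hoxb9 at -8.99, Hoxd3 at -1.98 and Hoxd8 at -0.71. Hoxa11 was the seventh, with 12.7 CPM on average in MC011 and 0 counts in MC010.

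Within the 4 libraries of a label, 4 values stood far from the other 3 in 65 groups examined, and chance gives about 1 in 20 groups of independent values. Each group here holds 2 libraries of each of 2 lines, so that rate may not apply. It applies least in the label IRF8 KO, whose lines differed from each other in 25 of the 33 genes. All 4 were in the label WT: Hoxa4 at 2.72 CPM in the first MC659 library, Hoxb2 at 6.11 CPM in the second MC654 library, Hoxb13 at 0 in the second MC659 library, and Hoxd10 at 0.0118 CPM, a single count, in the second MC654 library. The last 2 are at or under the floor of 3 counts.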

How the results depend on the processing

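By label, the 3 higher and 3 lower HOX genes became 5 higher with DESeq2, 5 higher with no filter on low counts, 0 higher and 0 lower on line sums, and 1 higher and 5 lower with the line as a random block in limma-voom. Leaving out MC010 gave 14 higher and 5 lower, leaving out MC011 gave 13 lower, and leaving out MC659 gave 1 higher. The share of all genes called in these fits was not counted. With each library left out, 2 to 7 were higher (6 and 7 without the first and second MC010 library) and 3 to 4 lower. Calls of MC654 minus MC659 rose from 0 to 4 with no fold threshold and were 0 to 1 with each library left out (1, without the second MC654 library). Per kilobase of exon, the posterior share was 4.80% in MC010, 33.2% in MC011, 29.3% in MC654 and 30.9% in MC659, and the Hoxc share 58.4%, 29.6%, 42.4% and 46.6%. The cause of these changes was not tested. Direction was followed through the alternatives for 47 single-gene results, and none of them changed sign. Their alternative fits lost a call 24 times and gained a call 5 times. By label, only Hoxa3, Hoxb7, Hoxc4, Hoxc5, Hoxc6, Hoxc8 and Hoxc10 were followed. The label values of other genes, such as Hoxa9, Hoxa10 and Hoxb9, were not. The library number as a replicate block left 3 higher and 3 lower by label, and 25, 0, 16, 16, 19 and 18 calls between lines against 25, 0, 16, 17, 19 and 18 without it, so the block moved 1 count of calls by 1. Depth limits Hoxd4 and the group 13 genes outside MC011, which had at most 22 counts over a line's 2 libraries.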
